A study of Homo sapiens with 24 samples.

Results

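The 10 genes described here encode the sensors of endoplasmic reticulum (ER) stress and the kinases of the translation factor eIF2alpha: ERN1, XBP1, ATF6, ATF6B, CREB3, CREB3L2, EIF2AK1, EIF2AK2, EIF2AK3 and EIF2AK4. They were taken by symbol from the deposited expression tables, in which each had 1 row, and they are 10 of 48162 genes. All 10 passed the filter on low expression in both cell lines. RNA was sequenced from 2 human pancreas cell lines, hTERT-HPNE (HPNE, immortalised with telomerase) and HPDE-H6c7 (HPDE, an immortalised duct line), both grown in keratinocyte serum-free medium. Each line had 4 groups of 3 libraries, 24 libraries in all: fresh serum-free medium (untreated), residual medium left after vesicle isolation as the negative control, 1e10 extracellular vesicles (EV) per well from PANC-1, a pancreatic carcinoma line, and 1e10 EV per well from PPCL-68 cells. RNA was taken after 24 h. Each recipient is a single line, so a difference between the lines is a difference between these cultures, and the p-values measure the spread between libraries that the series calls biological triplicates.

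The unfolded protein response begins at the ER membrane. ERN1 (IRE1alpha) is a kinase and RNase that senses unfolded protein and cuts the mRNA of XBP1, which is then re-joined in the frame that encodes an active transcription factor. ATF6 and ATF6B are membrane-bound transcription factors that move to the Golgi and are freed there by the proteases MBTPS1 and MBTPS2, and CREB3 and CREB3L2 are relatives of ATF6 that are cut in the same way and act on the secretory pathway. EIF2AK3 (PERK) is the ER member of the 4 kinases that phosphorylate eIF2alpha, lower general translation and favour that of ATF4. EIF2AK1 (HRI) answers to lack of heme and to mitochondrial stress, EIF2AK2 (PKR) to double-stranded RNA as part of the interferon response, and EIF2AK4 (GCN2) to uncharged tRNA. All of these proteins are switched on by processing, splicing or phosphorylation. RNA levels do not show that step, and gene-level values do not separate the cut from the uncut form of XBP1.

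The promoters of the members were searched for short sequence elements of these pathways. The part of such elements in the results below was not tested. RefSeq (GRCh38.p14) held 11 promoters of 300 bases, 250 before to 50 after the start, for 9 of the 10 genes, with 2 starts each for XBP1 and CREB3L2. Motifs were searched on both strands. The ER stress element (ERSE: CCAAT, 9 bases of any kind, CCACG, so that it contains a CCAAT box) was found in 1 member, XBP1, 52 to 34 bases before the start, and in 0.0769% of 35116 promoters. The cyclic AMP element (TGACGTCA) was found in CREB3L2 alone, at 179 to 172 bases before the first start, and in 1.85% of all promoters. The interferon-stimulated response element (GAAA, 2 bases of any kind, GAAA) was found in EIF2AK2 alone, spanning the start site, and in 3.57% of all promoters. The capitals below mark the ER stress element in XBP1, a CCAAT box in ERN1 (on the opposite strand) and EIF2AK3, the cyclic AMP element in CREB3L2 and the response element in EIF2AK2. All are read 5′ to 3′ on the gene's strand, which is the minus strand for each.
XBP1, chr22:28800570-28800669: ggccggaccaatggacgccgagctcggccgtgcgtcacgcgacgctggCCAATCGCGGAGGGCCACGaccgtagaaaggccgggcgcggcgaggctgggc
ERN1, chr17:64130145-64130244: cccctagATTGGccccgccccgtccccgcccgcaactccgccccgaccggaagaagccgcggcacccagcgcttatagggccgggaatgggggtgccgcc
EIF2AK3, chr2:88627465-88627564: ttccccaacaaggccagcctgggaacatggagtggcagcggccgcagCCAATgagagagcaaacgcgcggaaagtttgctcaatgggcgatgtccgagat
CREB3L2, chr7:138002187-138002286: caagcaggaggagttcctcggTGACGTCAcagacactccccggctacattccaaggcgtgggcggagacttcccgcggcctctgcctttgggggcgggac
EIF2AK2, chr2:37156975-37157004: gaaggcggagtccaagggGAAAACGAAAct
The ERN1 and EIF2AK3 windows of 100 bases were placed to show a CCAAT box. Of all promoters, at 300 bases and on either strand, 34.6% hold such a box. The EIF2AK3 promoter holds further CCAAT boxes from 232, 194 and 139 bases before the start, outside the window. No ER stress element of either form searched was found in these promoters (ERSE or ERSE-II, the latter ATTGG, 1 base of any kind, CCACG, in 0.0541% of promoters). The XBP1 element TGACGTGG (UPRE) was found in no member promoter and in 0.729% of all. The C/EBP-ATF element TGATGNAA (CARE) was found in 1, behind the second start of CREB3L2, and in 3.62% of all. A match is only a match of letters, and the binding of a factor was not measured.

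Values are FPKM, read counts scaled to gene length and to the depth of the library. Libraries held 29209142 to 46490312 reads assigned to genes, and the least covered member value rested on 338 reads (ERN1 in HPDE). The labels of the lines were checked against markers: 4 duct genes (EPCAM, KRT19, KRT7, CDH1) summed to 1141 to 2540 FPKM in HPDE and to 0.253 to 2.33 FPKM in HPNE, and 4 mesenchymal genes (VIM, COL1A2, FN1, THY1) summed to 6918 to 8979 FPKM in HPNE and to 75.9 to 148 FPKM in HPDE. HPNE thus lacked the duct markers. The 5 leukocyte, acinar and islet markers with a row summed to at most 0.0735 FPKM. In HPDE the duct sum was 1196 to 1397 FPKM after PANC-1 EV and 1141 to 1167 FPKM after PPCL-68 EV, against 2196 to 2540 FPKM in residual medium. In HPNE the mesenchymal sum is mostly FN1, which did not pass with either source, while VIM (447 to 174 FPKM), COL1A2 (1227 to 724 FPKM) and THY1 (36.7 to 18.4 FPKM) were lower with PPCL-68 EV than in residual medium, and 0 of the 4 passed with PANC-1 EV. The part of these marker changes in the results below was not tested. Genes of the mitochondrial genome took 0.362 to 2.63% of reads. In bulk RNA, fewer cells of a kind and less RNA per cell cannot be told apart. In each HPNE group 1 library stood apart (untreated replicate 3, residual medium replicate 3, replicate 1 of each EV group), at 2.05 to 3.31 times the distance within the closer pair, against 1.08 to 1.24 times in HPDE. HPNE results are therefore also given without these 4 libraries, a choice made after the data had been seen, which narrows the spread by its own construction.

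In untreated HPNE, XBP1 had the highest mean level per length of the 10 genes (56.2 FPKM) and CREB3L2 the next (52.8 FPKM, with overlapping libraries). ATF6B followed with 38.9 FPKM, then EIF2AK1 with 25.6 FPKM and CREB3 with 25.3 FPKM, which overlapped, EIF2AK4 with 20.5 FPKM and EIF2AK2 with 11.6 FPKM. The lowest were ATF6 with 9.04 FPKM, EIF2AK3 with 5.73 FPKM and ERN1 with 3.12 FPKM, none of which overlapped its neighbour. The ER-resident kinases ERN1 and EIF2AK3 were thus the least abundant transcripts of the set. In untreated HPDE, EIF2AK2 (48.9 FPKM) and XBP1 (47.2 FPKM) led with overlapping libraries, followed by EIF2AK1, ATF6B, CREB3, EIF2AK4, CREB3L2 and ATF6, and ERN1 (2.89 FPKM) and EIF2AK3 (2.79 FPKM) were again last and overlapped each other. After PPCL-68 EV, ERN1 stood in 6th place in HPDE with 18.3 FPKM, where its libraries overlapped those of EIF2AK4.

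**Figure D1:**
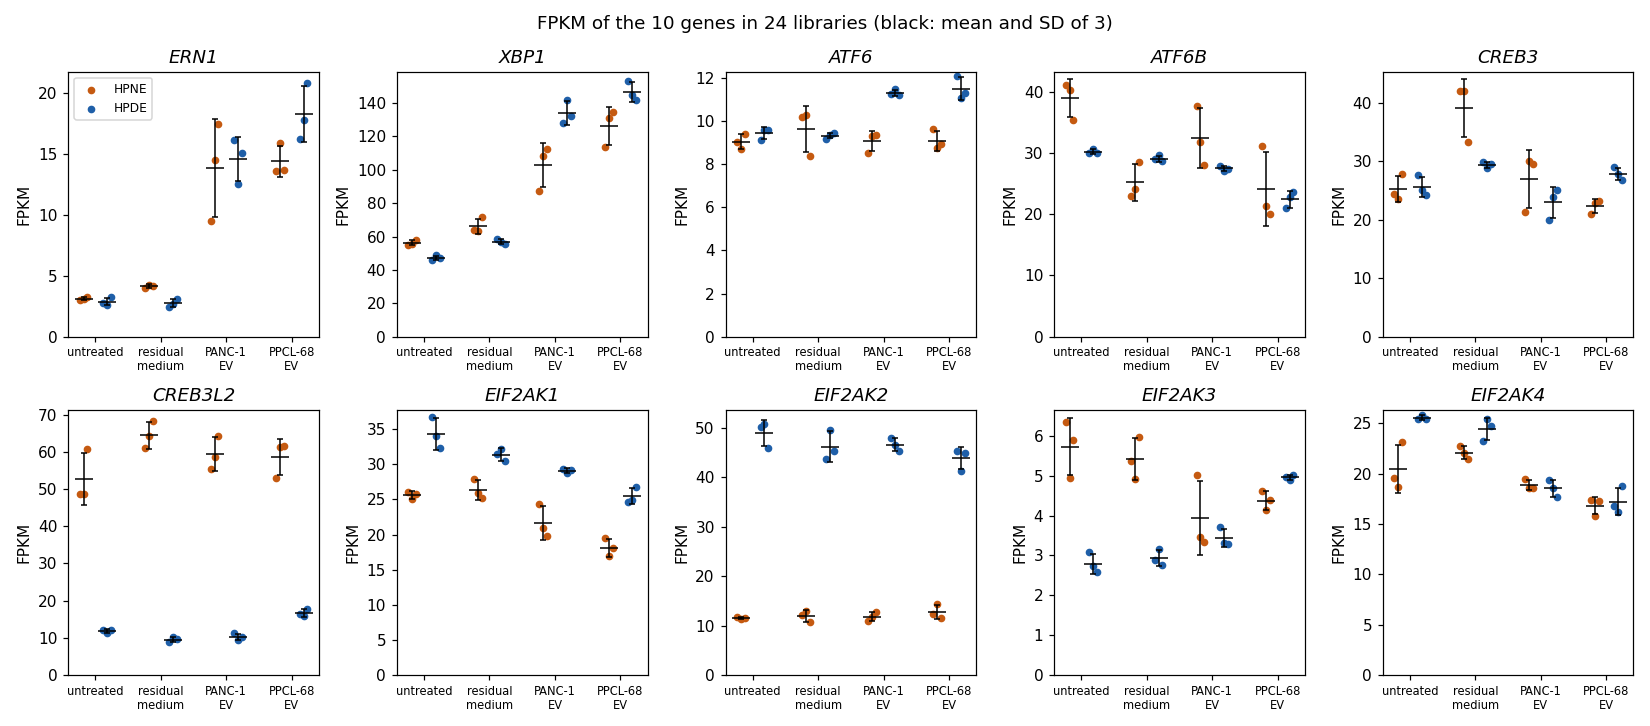
FPKM (linear axis from 0) of each of the 10 genes in the 24 libraries, by treatment, with HPNE in orange and HPDE in blue. Points are libraries and black bars the mean and SD of 3. ERN1 and XBP1 are higher with either vesicle source than with either medium in both lines, while EIF2AK2 and CREB3L2 differ mainly between the lines.

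The first question of the design was which of these genes vesicles moved from their residual-medium level. Among HPNE libraries, 4 of the 10 differed after PANC-1 EV (ERN1 and XBP1 higher, EIF2AK1 and CREB3 lower), where 24.2% of the 11503 genes tested did (13.9% higher, 10.3% lower). Every such test was by limma, with p-values adjusted over all genes by the Benjamini-Hochberg method. After PPCL-68 EV 5 differed (the same 4 in the same directions, and EIF2AK4 lower), where 39.9% of genes did (20.3% higher, 19.7% lower). In HPDE, 6 differed after PANC-1 EV (ERN1, XBP1, ATF6 and EIF2AK3 higher, EIF2AK4 and CREB3 lower), where 63.3% of 12223 genes did (28.2% higher, 35.1% lower). After PPCL-68 EV 8 differed (ERN1, XBP1, ATF6, EIF2AK3 and CREB3L2 higher, EIF2AK1, EIF2AK4 and ATF6B lower), where 67.7% of genes did (31.3% higher, 36.4% lower). The shares were thus near the share of all genes, and the sizes and directions set the members apart from one another. The median log2 difference of the 10 lay between -0.11 and 0.10 in the 4 comparisons, and that of all genes between -0.04 and 0.02. Without the 4 HPNE libraries that stood apart, 7 members differed with PANC-1 EV, where 59.1% of 11463 genes did, and 7 with PPCL-68 EV, where 65.7% did.

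**Figure D2:**
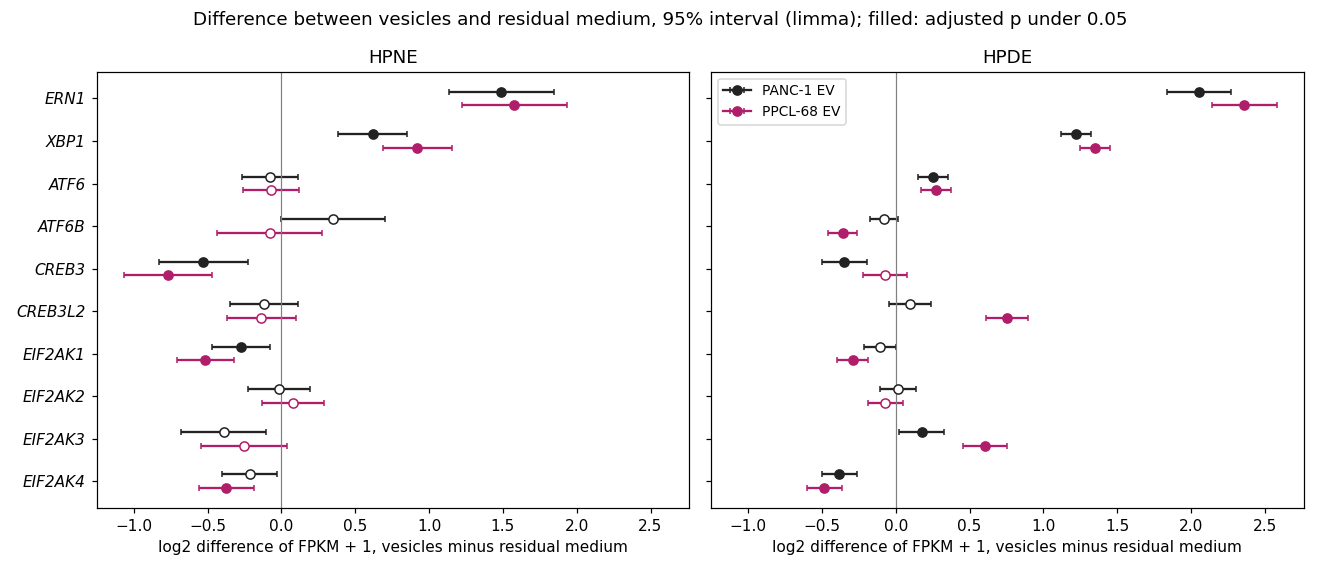
Log2 difference of FPKM + 1, vesicles minus residual medium, for each gene, with its 95% confidence interval from limma. Black is PANC-1 EV and magenta PPCL-68 EV, filled points have an adjusted p under 0.05, and both panels share one axis. ERN1 and XBP1 lie far to the right in both lines, ATF6 and EIF2AK3 lie to the right of 0 in HPDE only, and EIF2AK1 and EIF2AK4 lie to the left in both.

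ERN1 (chr17:62120353-62207504, minus strand, hg19) rose the most of the 10 genes in all 4 comparisons with residual medium. In HPNE it had 2.99, 3.12 and 3.24 FPKM untreated and 3.99, 4.28 and 4.16 FPKM in residual medium. With vesicles it had 9.50, 14.5 and 17.4 FPKM (PANC-1 EV) and 13.6, 15.8 and 13.7 FPKM (PPCL-68 EV). Every vesicle library was above every medium library, and PANC-1 EV replicate 1, a library that stood apart, was the lowest of the 6. The log2 difference from residual medium was 1.49 ± 0.16 (SE, adjusted p = 0.00034) with PANC-1 EV and 1.58 ± 0.16 (adjusted p = 7.37e-05) with PPCL-68 EV, which is 2.80-fold and 2.98-fold on the log2(FPKM + 1) scale. Without the 4 libraries apart the differences were 1.72 and 1.62.

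In HPDE the rise of ERN1 was larger. Its values were 2.78, 2.64 and 3.25 FPKM untreated and 2.45, 2.67 and 3.10 FPKM in residual medium. They were 16.1, 12.5 and 15.1 FPKM with PANC-1 EV and 16.2, 17.8 and 20.8 FPKM with PPCL-68 EV. The 2 media overlapped, and the vesicle libraries lay above both. The log2 difference was 2.05 ± 0.10 (4.15-fold, adjusted p = 7.08e-10) with PANC-1 EV and 2.36 ± 0.10 (5.14-fold, adjusted p = 1.02e-10) with PPCL-68 EV. The effect in HPDE exceeded that in HPNE by 0.78 ± 0.20 for PPCL-68 EV (adjusted p = 0.0078, interaction over 24 libraries), and by 0.57 ± 0.20 for PANC-1 EV, which did not pass (adjusted p = 0.0536). Against untreated cells ERN1 was higher in HPNE (1.81 and 1.90) and HPDE (2.00 and 2.30), PANC-1 EV first, all past the threshold. These comparisons share their vesicle libraries with those above.

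XBP1 (chr22:29190543-29196585, minus strand, hg19), the substrate of ERN1, was second in size. In HPNE it had 54.98, 55.7 and 57.9 FPKM untreated, 64.0, 63.2 and 71.5 FPKM in residual medium, 87.6, 108 and 112 FPKM with PANC-1 EV and 113, 131 and 135 FPKM with PPCL-68 EV. The 4 groups did not overlap and followed that order. The log2 difference from residual medium was 0.62 ± 0.11 (adjusted p = 0.0030) with PANC-1 EV and 0.92 ± 0.11 (adjusted p = 0.000148) with PPCL-68 EV, and 0.78 and 1.05 without the 4 libraries apart. In HPDE the values were 45.9, 48.7 and 47.0 FPKM untreated, 58.6, 56.8 and 55.4 FPKM in residual medium, 128, 142 and 132 FPKM with PANC-1 EV and 153, 145 and 142 FPKM with PPCL-68 EV. Both vesicle groups lay at more than 2-fold the residual medium, and they overlapped each other. The log2 difference was 1.22 ± 0.05 (2.33-fold, adjusted p = 5.7e-11) and 1.35 ± 0.05 (2.55-fold, adjusted p = 1.4e-11). The effect was larger in HPDE than in HPNE by 0.60 ± 0.12 for PANC-1 EV (adjusted p = 0.00103) and by 0.43 ± 0.12 for PPCL-68 EV (adjusted p = 0.00995). Residual medium itself was 0.27 ± 0.05 above untreated in HPDE (adjusted p = 0.00165).

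ERN1 and XBP1 moved together across libraries. Pearson's r of log2(FPKM + 1) was 0.97 over the 12 libraries of HPNE and 0.97 over those of HPDE, which describes mainly the separation of vesicle from medium libraries. Within the groups the pair did not keep one order: in HPDE with PPCL-68 EV the library with the most ERN1 (20.8 FPKM) had the least XBP1 (142 FPKM), and in HPDE with PANC-1 EV the library with the least ERN1 (12.5 FPKM) had the most XBP1 (142 FPKM).

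**Figure D3:**
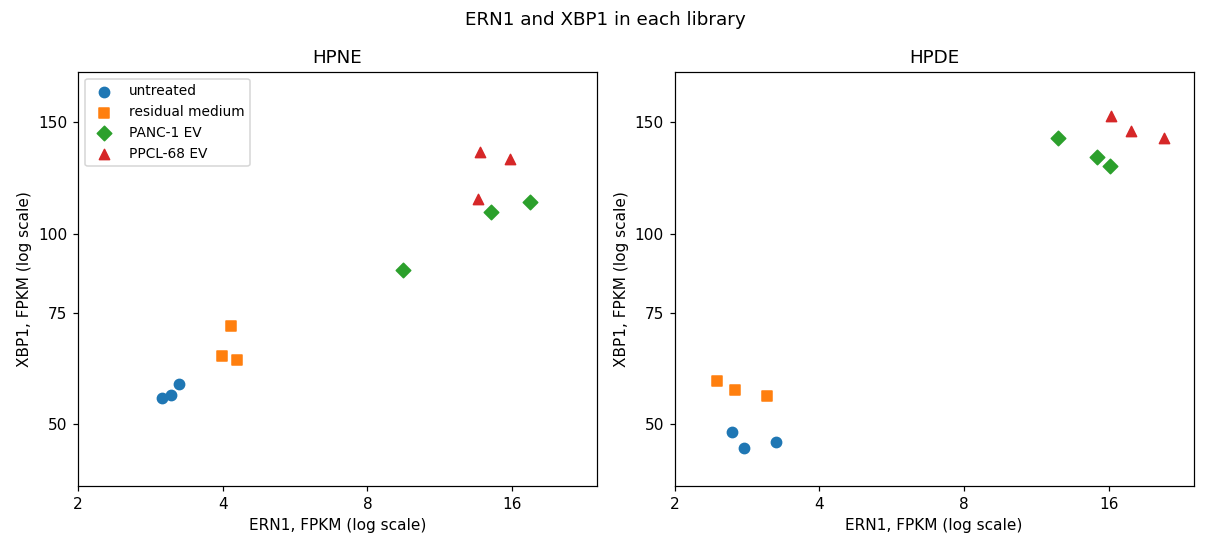
ERN1 against XBP1 in each library, FPKM on log axes, with HPNE on the left and HPDE on the right. The vesicle libraries stand apart from the media along both axes, and in HPNE the PANC-1 EV library with 9.50 FPKM of ERN1 lies nearest to the media.

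ATF6 (chr1:161736084-161933860, plus strand, hg19) rose by a small and even amount in HPDE and did not pass the test in HPNE. In HPDE it had 9.11, 9.57 and 9.60 FPKM untreated, 9.17, 9.36 and 9.42 FPKM in residual medium, 11.2, 11.5 and 11.2 FPKM with PANC-1 EV and 12.1, 11.1 and 11.3 FPKM with PPCL-68 EV. All 6 vesicle libraries were above all 6 medium libraries. The log2 difference from residual medium was 0.25 ± 0.05 (adjusted p = 0.000301) and 0.27 ± 0.05 (adjusted p = 0.000124). In HPNE all 12 libraries lay between 8.39 and 10.3 FPKM, and the differences were -0.07 (95% interval -0.26 to 0.12) for PANC-1 EV and -0.07 (-0.26 to 0.12) for PPCL-68 EV. The HPNE and HPDE effects differed by 0.33 ± 0.09 for PANC-1 EV (adjusted p = 0.0146) and by 0.34 ± 0.09 for PPCL-68 EV (adjusted p = 0.00858). Without the 4 libraries apart, ATF6 in HPNE was lower with PPCL-68 EV than in residual medium (-0.19, adjusted p = 0.0118), so its direction was opposite in the 2 lines under that choice.

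ATF6B (chr6:32065953-32096030, minus strand, hg19), the paralogue of ATF6, went the other way in HPDE. It had 28.9, 29.6 and 28.7 FPKM there in residual medium, 27.9, 27.1 and 27.5 FPKM with PANC-1 EV and 20.9, 22.8 and 23.6 FPKM with PPCL-68 EV. Only PPCL-68 EV passed the test, at -0.36 ± 0.05 (adjusted p = 5.33e-06), while PANC-1 EV gave -0.08 ± 0.05 (adjusted p = 0.143). In HPNE ATF6B had 41.1, 40.2 and 35.3 FPKM untreated and fell to 23.0, 24.0 and 28.6 FPKM in residual medium (-0.61 ± 0.16, adjusted p = 0.0119). It had 37.6, 31.7 and 27.98 FPKM with PANC-1 EV and 31.1, 21.3 and 19.96 FPKM with PPCL-68 EV, and both groups overlapped residual medium. The differences from residual medium were 0.35 ± 0.16 (adjusted p = 0.131) and -0.08 ± 0.16 (adjusted p = 0.719). Both passed, in opposite directions, once the 4 libraries apart were left out: 0.33 for PANC-1 EV (adjusted p = 0.00158) and -0.18 for PPCL-68 EV (adjusted p = 0.0325). The effect of residual medium in HPDE was higher by 0.56 ± 0.17 (adjusted p = 0.0168), and by 0.71 without the 4 libraries apart. In each HPNE group the library that stood apart had the highest or the lowest value. ATF6B overlaps TNXB on the same strand, which had at most 265 reads in a library.

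CREB3 (chr9:35732332-35737001, plus strand, hg19) had its highest HPNE values in residual medium. It had 24.5, 23.6 and 27.8 FPKM untreated and 42.0, 42.0 and 33.3 FPKM in residual medium, a log2 difference of 0.60 ± 0.14 (adjusted p = 0.00574). With vesicles it had 21.3, 30.0 and 29.6 FPKM (PANC-1 EV) and 21.0, 22.9 and 23.3 FPKM (PPCL-68 EV). The vesicle groups were thus lower than residual medium, by -0.53 ± 0.14 (adjusted p = 0.018) and -0.77 ± 0.14 (adjusted p = 0.00153), and against untreated cells they did not pass (0.08 and -0.17). The PANC-1 EV call was lost without residual medium replicate 1 (-0.47, adjusted p = 0.0753), without replicate 2 of that group (-0.47, adjusted p = 0.0748) and with only the 6 libraries compared (adjusted p = 0.075). Without the 4 libraries apart, where 59.1% of all genes passed, the difference was -0.48 (adjusted p = 1.36e-05). CREB3 was then also above untreated with PANC-1 EV (0.30, adjusted p = 0.000298), where 62.7% of genes passed. That choice narrows the spread by construction, so these values do not make up for the losses.

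In HPDE CREB3 passed as lower than residual medium with PANC-1 EV only. It had 29.9, 28.8 and 29.5 FPKM in residual medium, 20.0, 23.8 and 25.1 FPKM with PANC-1 EV and 28.9, 27.8 and 26.8 FPKM with PPCL-68 EV. The difference from residual medium was -0.35 ± 0.07 (adjusted p = 0.000567) and -0.08 ± 0.07 (adjusted p = 0.35). Untreated HPDE had 27.6, 25.1 and 24.3 FPKM, all below residual medium and overlapping PANC-1 EV. CREB3 lies opposite GBA2 and TLN1, the latter with up to 57221 reads in a library, and the library kit kept no strand. Reads of CREB3 and of those genes in the shared stretch cannot be told apart, and their part in these differences was not tested.

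CREB3L2 (chr7:137559725-137686813, minus strand, hg19), which drives genes of secretory vesicle transport, was mainly a marker of the line. HPNE libraries held 48.8 to 68.3 FPKM and HPDE libraries 8.78 to 17.8 FPKM, with no overlap. In HPDE it had 12.2, 11.4 and 12.1 FPKM untreated, 8.78, 10.2 and 9.57 FPKM in residual medium, 11.2, 9.42 and 10.1 FPKM with PANC-1 EV and 16.3, 15.997 and 17.8 FPKM with PPCL-68 EV. The PPCL-68 EV libraries were above all others, and residual medium was below untreated. The log2 difference from residual medium was 0.75 ± 0.07 with PPCL-68 EV (adjusted p = 1.79e-07) and 0.10 ± 0.07 with PANC-1 EV (adjusted p = 0.222), and residual medium lay 0.29 below untreated (-0.29 ± 0.07, adjusted p = 0.0077). In HPNE neither vesicle source passed (-0.12 and -0.14), and residual medium was above untreated by 0.29 ± 0.11 (adjusted p = 0.0435). That HPNE call was lost without untreated replicate 1 (0.24, adjusted p = 0.154), untreated replicate 2 (0.24, adjusted p = 0.153) or any 1 residual medium library (0.25 to 0.33, adjusted p = 0.0654 to 0.101). It passed without the 4 libraries apart (0.35), where 71.7% of all genes did and the spread is narrowed by construction. The effects of PPCL-68 EV and of residual medium differed between the lines, by 0.89 ± 0.13 (adjusted p = 3.01e-05) and -0.59 ± 0.13 (adjusted p = 0.00157).

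Of the other genes of these families, CREB3L1 was expressed in HPNE (91.0, 91.6 and 93.2 FPKM untreated) and had at most 18 reads in any HPDE library. CREB3L4 had 4.37 FPKM in untreated HPNE and 2.55 FPKM in residual medium, the only call of these genes in the comparisons with residual medium. ERN2 and CREB3L3 had at most 2 reads in any library.

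EIF2AK3 (chr2:88856259-88927094, minus strand, hg19) went up in HPDE with both vesicle sources. It had 3.07, 2.73 and 2.57 FPKM untreated and 2.88, 3.16 and 2.75 FPKM in residual medium. With PANC-1 EV it had 3.71, 3.32 and 3.29 FPKM and with PPCL-68 EV 4.97, 4.89 and 5.02 FPKM. The 3 PPCL-68 EV libraries lay close together and above all the rest. The log2 difference from residual medium was 0.60 ± 0.07 with PPCL-68 EV (1.52-fold, adjusted p = 2.82e-06) and 0.18 ± 0.07 with PANC-1 EV (adjusted p = 0.0408). The smaller of the 2 was lost without PANC-1 EV replicate 1 (0.13, adjusted p = 0.154), residual medium replicate 1 (0.17, adjusted p = 0.0876) or residual medium replicate 3 (0.14, adjusted p = 0.138), and with only the 6 libraries compared.

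In HPNE EIF2AK3 had 6.34, 4.94 and 5.91 FPKM untreated, 5.37, 4.93 and 5.97 FPKM in residual medium, 5.02, 3.45 and 3.34 FPKM with PANC-1 EV and 4.61, 4.13 and 4.40 FPKM with PPCL-68 EV. The difference from residual medium was -0.39 ± 0.13 (adjusted p = 0.0504) and -0.25 ± 0.13 (adjusted p = 0.146). PANC-1 EV replicate 1, a library apart, was the one that overlapped residual medium, and without it the difference was -0.54 (adjusted p = 0.00953). Without the 4 libraries apart it was -0.48 (adjusted p = 0.00221), where 59.1% of all genes passed and the spread is narrowed by construction. With the replicate number as a block it passed too (adjusted p = 0.0339), but the numbers did not pair these groups (correlations -0.32, 0.33 and -0.28). These settings do not make up for the adjusted p of 0.0504 in the main test. The effects in the lines differed by 0.57 ± 0.15 for PANC-1 EV (adjusted p = 0.00967) and by 0.86 ± 0.15 for PPCL-68 EV (adjusted p = 0.000249).

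EIF2AK4 (chr15:40226347-40327797, plus strand, hg19) had lower means with vesicles than in residual medium. In HPDE it had 23.3, 25.4 and 24.7 FPKM in residual medium, 19.4, 18.6 and 17.7 FPKM with PANC-1 EV and 16.8, 16.2 and 18.8 FPKM with PPCL-68 EV, against 25.4, 25.8 and 25.5 FPKM untreated. No vesicle library reached a medium library. The log2 differences were -0.38 ± 0.06 (adjusted p = 3.31e-05) and -0.48 ± 0.06 (adjusted p = 2.45e-06). In HPNE it had 22.7, 22.1 and 21.5 FPKM in residual medium, 19.5, 18.6 and 18.6 FPKM with PANC-1 EV and 17.4, 15.8 and 17.3 FPKM with PPCL-68 EV. Untreated HPNE had 19.6, 18.7 and 23.2 FPKM, which overlapped PANC-1 EV and residual medium. The vesicle groups did not overlap residual medium, with -0.21 ± 0.08 for PANC-1 EV (adjusted p = 0.0833, and -0.26 with adjusted p = 0.00349 without the 4 libraries apart) and -0.37 ± 0.08 for PPCL-68 EV (adjusted p = 0.00566). Against untreated HPNE the PANC-1 EV difference was -0.11 and did not pass, while that of PPCL-68 EV was -0.26 and passed. The difference between the lines did not pass for either source (-0.17, 95% interval -0.37 to 0.04, and -0.11, -0.32 to 0.09).

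EIF2AK1 (chr7:6061881-6098861, minus strand, hg19) fell with PPCL-68 EV in both lines. In HPNE it had 27.96, 25.9 and 25.2 FPKM in residual medium, 24.4, 20.9 and 19.8 FPKM with PANC-1 EV and 19.5, 16.9 and 18.0 FPKM with PPCL-68 EV. The 3 groups stood in that order without overlap, at -0.27 ± 0.09 (adjusted p = 0.044) and -0.51 ± 0.09 (adjusted p = 0.00129) from residual medium. The PANC-1 EV call was lost without PANC-1 EV replicate 2 (-0.25, adjusted p = 0.121), PANC-1 EV replicate 3 (-0.21, adjusted p = 0.137), residual medium replicate 1 (-0.23, adjusted p = 0.157) or residual medium replicate 2 (-0.28, adjusted p = 0.103). It passed without the 4 libraries apart (-0.39), where 59.1% of all genes did and the spread is narrowed by construction. In HPDE EIF2AK1 had 31.5, 32.2 and 30.5 FPKM in residual medium, 29.4, 28.7 and 29.2 FPKM with PANC-1 EV and 24.6, 25.0 and 26.8 FPKM with PPCL-68 EV. Those groups were ordered in the same way, with -0.11 ± 0.05 (adjusted p = 0.0799) and -0.29 ± 0.05 (adjusted p = 0.00012). The effect in HPDE minus that in HPNE was 0.17 for PANC-1 EV and 0.22 for PPCL-68 EV, and neither passed. Without the 4 libraries apart both did (0.28 and 0.30), where 46.7% and 45.8% of genes passed. EIF2AK1 lies opposite AIMP2, which had up to 1813 reads in a library.

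EIF2AK2 (chr2:37326353-37384208, minus strand, hg19) did not pass in any comparison of vesicles with residual medium. The differences were -0.02 (95% interval -0.23 to 0.19) and 0.08 (-0.13 to 0.29) in HPNE and 0.02 (-0.10 to 0.14) and -0.07 (-0.19 to 0.05) in HPDE, PANC-1 EV first. It held 10.7 to 14.3 FPKM in the 12 HPNE libraries and 41.3 to 50.8 FPKM in the 12 HPDE libraries, so the lines did not overlap. Of 12 interferon-stimulated genes, which are regulated with it, 8 rose and 2 fell in HPDE with PANC-1 EV, and 2 rose and 4 fell with PPCL-68 EV. Of all genes 63.3% and 67.7% passed there. Of the 9 tested in HPNE, 4 and 6 rose and 0 fell against residual medium (24.2% and 39.9% of all genes passed). In that medium 3 of the 9 were lower than untreated (43.9% passed). Against untreated HPNE 1 rose and 2 fell with PANC-1 EV (21.1% passed), and 5 rose and 2 fell with PPCL-68 EV (42.5% passed). IFIT1 and IFIT2 were the 2 that fell each time (IFIT2 by -0.61 and -1.57). IFIT2, which binds RNA, had 80.9 FPKM in HPDE residual medium and 177 FPKM with PANC-1 EV (1.12 ± 0.09, adjusted p = 1.65e-07). EIF2AK2 itself thus kept within 1.34-fold across HPNE and 1.23-fold across HPDE libraries. Its single call against untreated cells, in HPDE with PPCL-68 EV (-0.15 ± 0.06, adjusted p = 0.0254), was lost without untreated replicate 1 (adjusted p = 0.0815), untreated replicate 2 (adjusted p = 0.0972) or PPCL-68 EV replicate 2 (adjusted p = 0.119).

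The genes around and below the sensors were counted by lists written from general knowledge, but with earlier results of these data known. The lists are therefore not independent of the data. The list of 10 ATF4 outputs, which answer to any eIF2alpha kinase, holds ATF4 itself. In HPNE 8 of 10 rose with PANC-1 EV (median log2 difference 1.62) and 10 of 10 with PPCL-68 EV (2.04). Without the libraries apart 10 of 10 rose with PANC-1 EV, where 59.1% of all genes passed. In HPDE 9 of 10 (1.80) and 10 of 10 (1.93) rose. None fell in these 4 comparisons, where 24.2% and 39.9% of all genes passed in HPNE and 63.3% and 67.7% in HPDE. ATF4 RNA in HPNE was 0.63 and 0.79 above residual medium (adjusted p = 0.0444 and 0.0109), PANC-1 EV first. Against untreated HPNE it did not pass (0.05 and 0.21, adjusted p = 0.874 and 0.426). In HPDE it was above untreated with PANC-1 EV (0.47, adjusted p = 1.77e-07). TRIB3, a pseudokinase induced by ATF4, had 29.3 FPKM in HPNE residual medium and, in the order PANC-1 EV, PPCL-68 EV, 155 and 162 FPKM. Untreated HPNE held 59.5 FPKM of TRIB3, so that with PANC-1 EV it was 6.49-fold above residual medium and 2.69-fold above untreated cells. DDIT3 (CHOP) had 7.39 FPKM in HPDE residual medium and 51.9 and 38.2 FPKM with the same sources. The median of all genes lay between -0.04 and 0.02 in the 4 comparisons with residual medium.

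The outputs of ATF6 and XBP1 did not move as one. Of 10 ATF6 outputs, mostly ER chaperones, 1 rose and 1 fell in HPNE with PANC-1 EV (median -0.27) and 3 rose and 3 fell with PPCL-68 EV (-0.50). Of all genes 24.2% and 39.9% passed there. Without the libraries apart 7 fell in each, where 59.1% and 65.7% of all genes passed. In HPDE 3 rose and 5 fell with PANC-1 EV (-0.16), while 7 rose and 1 fell with PPCL-68 EV (0.39), beside 63.3% and 67.7% of all genes. HERPUD1, a factor of ER-associated degradation, had 27.97 FPKM in HPDE residual medium, 55.03 FPKM after PANC-1 EV and 78.5 FPKM after PPCL-68 EV. HSPA5 (BiP), the chaperone that holds the sensors inactive, had 357 FPKM there and 470 and 847 FPKM. MANF, an ER-stress-induced secreted protein, had 43.1 FPKM in HPNE residual medium and 24.8 FPKM with PANC-1 EV (-0.76 ± 0.24, adjusted p = 0.0405).

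Of 11 XBP1 outputs in protein transport and degradation, 0 rose and 6 fell in HPNE with PANC-1 EV (median -0.38), and 2 rose and 2 fell with PPCL-68 EV (-0.07, with 6 lower without the 4 libraries apart, where 65.7% of all genes passed). XBP1 RNA itself was higher in both. In HPDE 5 rose and 3 fell with PANC-1 EV (0.11), and 10 rose and 0 fell with PPCL-68 EV (0.66). Of all genes 63.3% and 67.7% passed there, and 24.2% and 39.9% in HPNE. SEC61B, a subunit of the ER translocon, had 107 FPKM in HPNE residual medium and 73.8 FPKM after PANC-1 EV, and its HPDE values were 105 and 74.1 FPKM. DNAJB9, a co-chaperone that keeps ERN1 inactive, had 4.97 FPKM in HPDE residual medium, 11.8 FPKM after PANC-1 EV and 18.6 FPKM after PPCL-68 EV. It is also in the list of sensor regulators, as is HSPA5, so the lists are not independent.

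**Figure D4:**
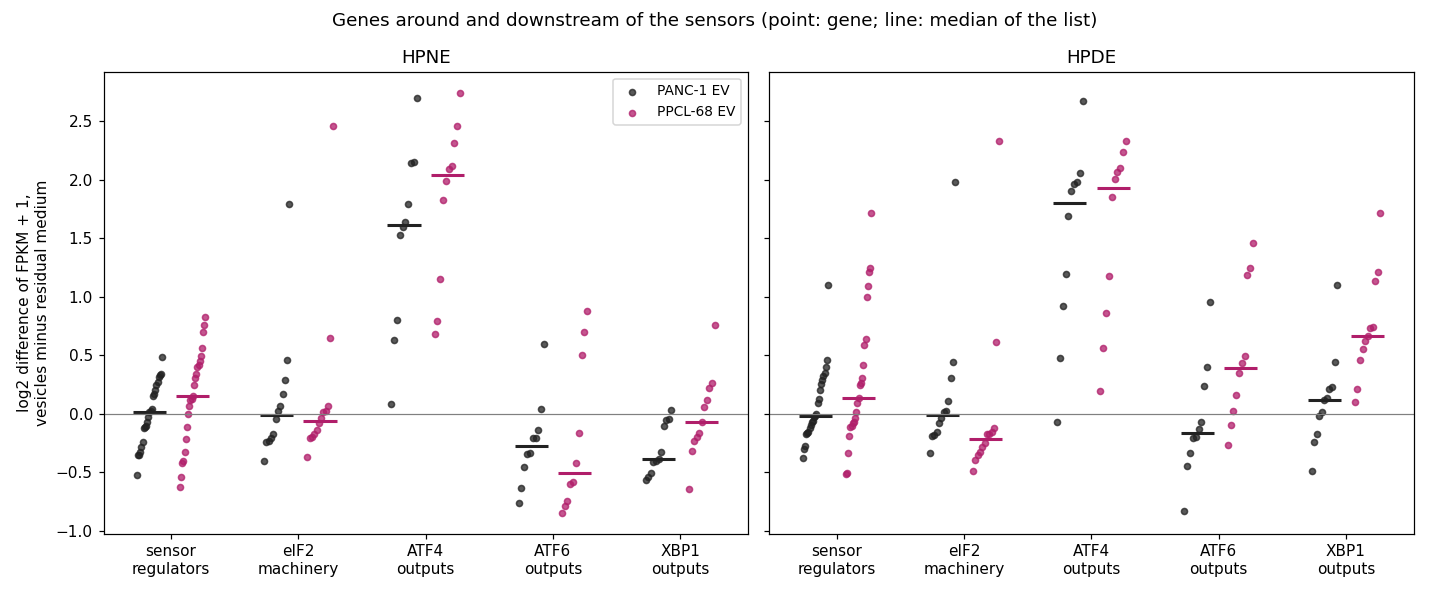
Log2 difference of FPKM + 1, vesicles minus residual medium, of each gene (point) in 5 lists, with the median of the list as a line. Black is PANC-1 EV and magenta PPCL-68 EV. The ATF4 outputs have medians of 1.62 to 2.04 in all 4 comparisons, while the medians of the ATF6 and XBP1 outputs are 0.39 and 0.66 in HPDE with PPCL-68 EV and at most 0.11 in the other 3.

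Of 23 sensor regulators, 4 rose and 4 fell in HPNE with PANC-1 EV, 9 rose and 3 fell with PPCL-68 EV, and in HPDE 9 rose and 7 fell, and 12 rose and 6 fell. Of all genes 24.2% and 39.9% passed in HPNE and 63.3% and 67.7% in HPDE, against which these counts are to be read. Without the 4 libraries apart 7 rose and 7 fell in HPNE with PANC-1 EV, and 11 rose and 7 fell with PPCL-68 EV. Under that choice 59.1% and 65.7% of all genes passed. SEL1L, a subunit of the ER ubiquitin ligase complex, rose in HPNE from 29.0 to 52.0 FPKM with PPCL-68 EV. WFS1, an ER membrane protein, fell there from 18.8 to 11.6 FPKM. MBTPS2, a Golgi protease of ATF6, rose in HPDE with PANC-1 EV from 8.77 to 12.4 FPKM (0.46 ± 0.06, adjusted p = 1.39e-05). C22orf28 (RTCB), the ligase that rejoins cut XBP1 mRNA, fell in HPDE from 59.1 FPKM, to 47.8 FPKM after PANC-1 EV and 41.2 FPKM after PPCL-68 EV, while ERN1 and XBP1 rose. TARBP2, which binds and restrains EIF2AK2, fell there from 20.5 to 15.6 and 14.2 FPKM. Of the regulators of the kinase EIF2AK1, KIAA0141 (DELE1), which carries the mitochondrial signal to it, had 6.01 FPKM in HPNE residual medium and 7.90 FPKM with PANC-1 EV (adjusted p = 0.0453), against 8.04 FPKM untreated.

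Among 12 genes of the eIF2 machinery, 2 rose and 1 fell in HPNE with each source, 3 rose and 4 fell in HPDE with PANC-1 EV, and 2 rose and 10 fell in HPDE with PPCL-68 EV, beside the same shares of all genes. In HPNE 6 and 7 fell without the 4 libraries apart, where 59.1% and 65.7% of all genes passed. The 2 that rose in all 4 comparisons were PPP1R15A (GADD34) and PPP1R15B (CReP), the subunits that direct the phosphatase to eIF2alpha. PPP1R15A, also an ATF4 output, had 55.4 FPKM in HPNE residual medium and 198 and 308 FPKM after EV, PANC-1 first. In HPDE it had 58.5 FPKM and 234 and 299 FPKM. EIF2S1, eIF2alpha itself, fell in HPDE with PPCL-68 EV from 64.5 to 48.8 FPKM (-0.39 ± 0.05, adjusted p = 4.66e-06).

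The vesicle sources were compared directly. In HPDE 7 of the 10 genes differed between PANC-1 EV and PPCL-68 EV, where 50.1% of genes did (25.2% higher with PANC-1 EV, 24.9% lower): EIF2AK1 and ATF6B were higher with PANC-1 EV, and ERN1, XBP1, EIF2AK3, CREB3 and CREB3L2 were higher with PPCL-68 EV. The largest differences were those of CREB3L2 (-0.66 ± 0.07, adjusted p = 2.36e-06) and EIF2AK3 (-0.43 ± 0.07, adjusted p = 0.000178). That of ERN1 (-0.31 ± 0.10, adjusted p = 0.0222) was lost without PANC-1 EV replicate 2 (-0.21, adjusted p = 0.114) or PPCL-68 EV replicate 3 (-0.21, adjusted p = 0.112). That of XBP1 (-0.13 ± 0.05, adjusted p = 0.034) came from overlapping groups and was lost without PANC-1 EV replicate 1 or 3 or PPCL-68 EV replicate 1 or 2 (-0.14 to -0.10, adjusted p = 0.0581 to 0.132). ATF6 did not pass (-0.02, 95% interval -0.12 to 0.08). Its outputs were lower with PANC-1 EV for 9 of 10 genes (median -0.56), and XBP1 outputs for 11 of 11 (-0.54), whereas 10 of 12 interferon-stimulated genes were higher (0.64). In HPNE 0 of the 10 differed by limma, where 5.47% of genes did (3.22% higher, 2.25% lower), 3 had an unadjusted p under 0.05, and limma voom on the recovered reads called 0. Without PPCL-68 EV replicate 1, ATF6B passed there (0.62, adjusted p = 0.0234), and without the 4 libraries apart 4 genes did (EIF2AK1, ATF6B and CREB3 higher with PANC-1 EV, XBP1 higher with PPCL-68 EV), where 36.5% of genes did.

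Residual medium, the negative control, was compared with fresh medium. In HPNE 3 of the 10 genes differed (CREB3 and CREB3L2 higher, ATF6B lower), where 43.9% of genes did (18.7% higher, 25.2% lower), and 7 without the 4 libraries apart, where 71.7% of genes did. In HPDE 2 differed (XBP1 higher, CREB3L2 lower), where 20.0% did (9.93% higher, 10.1% lower). ERN1 was 0.32 ± 0.16 above untreated in HPNE (adjusted p = 0.129), with groups that did not overlap, and -0.06 ± 0.10 in HPDE. In HPNE, 8 of the 10 ATF6 outputs (median 0.63) and 7 of the 11 XBP1 outputs (0.33) rose in residual medium and 0 fell, and in HPDE 0 and 2 rose. Without the 4 libraries apart 9 ATF6 outputs rose and 0 fell, and 9 XBP1 outputs rose and 1 fell. The ATF4 outputs went mostly the other way in HPNE residual medium: 1 of 10 rose and 4 fell (median -0.57), and 1 rose and 6 fell without the 4 libraries apart. The 4 that fell over all libraries were ATF4, DDIT3, TRIB3 and SESN2. Residual medium and untreated libraries overlapped for ATF4, DDIT3 and TRIB3 (limma, adjusted p = 0.0392, 0.045 and 0.0394), and not for SESN2. The rises of these genes with vesicles in HPNE are measured from a control whose mean lay below the untreated mean. MANF had 21.7 FPKM in untreated HPNE and 43.1 FPKM in residual medium (0.94 ± 0.24, adjusted p = 0.0102). With the replicate number as a block, 5 ATF6 outputs rose, and the numbers do not pair these groups.

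Against untreated cells, 3 of the 10 differed in HPNE with PANC-1 EV (ERN1 and XBP1 higher, EIF2AK3 lower at -0.46 ± 0.13, adjusted p = 0.0309), where 21.1% of genes did (9.61% higher, 11.5% lower). The EIF2AK3 groups overlapped, and the call was lost without untreated replicate 1 or 3 or PANC-1 EV replicate 2 or 3 (-0.44 to -0.37, adjusted p = 0.0635 to 0.13). With PPCL-68 EV 5 differed (ERN1 and XBP1 higher, EIF2AK1, EIF2AK4 and ATF6B lower), where 42.5% did (18.7% higher, 23.8% lower). In HPDE 8 differed with PANC-1 EV, 4 in each direction, where 60.6% of genes did (26.3% higher, 34.4% lower). With PPCL-68 EV 9 differed, 5 higher and 4 lower, where 66.3% of genes did (30.1% higher, 36.1% lower). Measured from untreated HPNE, 2 of 10 ATF6 outputs rose after PANC-1 EV and 3 after PPCL-68 EV, and 0 fell with either. Without the 4 libraries apart 10 and 8 rose, where 62.7% and 69.6% of all genes passed and the spread is narrowed by construction. The XBP1 outputs gave 0 of 11 higher with PANC-1 EV and 8 higher and 2 lower with PPCL-68 EV. Of the 10 ATF4 outputs 7 rose with PANC-1 EV (median 1.33) and 8 with PPCL-68 EV (1.45), and 0 fell. Falls of ATF6 outputs were thus counted in HPNE against residual medium and not against untreated cells. ERN1 and XBP1 passed as higher against both media.

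Between the untreated lines 7 of the 10 genes differed, where 83.8% of 12377 genes did (56.0% higher in HPDE, 27.7% lower). EIF2AK2 was higher in HPDE by 1.99 ± 0.08 (3.97-fold, adjusted p = 2.62e-15), with 50.1, 50.8 and 46.0 FPKM against 11.7, 11.4 and 11.6 FPKM in HPNE. All 12 interferon-stimulated genes were also higher in HPDE (median 3.94). CREB3L2 was lower in HPDE by 2.05 on the log2 scale (-2.05 ± 0.09, adjusted p = 1.22e-14), and EIF2AK3 was lower too (-0.82 ± 0.10, adjusted p = 3.4e-07). ATF6B (-0.35 ± 0.12) and XBP1 (-0.25 ± 0.08) were lower, and EIF2AK1 (0.41 ± 0.07) and EIF2AK4 (0.31 ± 0.07) were higher. These last values depend on the scaling. A few genes hold 14.5 to 18.3% of reads in HPNE (the 10 most abundant) and 4.33 to 5.21% in HPDE, and the median log2 difference of all genes was 0.38 with FPKM and 0.07 after division by size factors. Under size factors EIF2AK1 (0.05, adjusted p = 0.446) and EIF2AK4 (-0.04, adjusted p = 0.624) no longer passed. ATF6 and CREB3, which did not differ on the FPKM scale (0.05 and 0.02), were lower in HPDE by that measure (-0.27 and -0.33), as was ERN1 (-0.36, adjusted p = 0.0362).

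The effects themselves were compared between the lines by interaction. For PANC-1 EV against residual medium 3 of the 10 differed, all higher in HPDE, where 21.2% of genes did (8.65% higher, 12.5% lower). For PPCL-68 EV 6 differed, all higher in HPDE, where 25.7% of genes did (12.1% higher, 13.6% lower). For residual medium against untreated 3 differed, ATF6B higher and CREB3 and CREB3L2 lower, where 38.1% of genes did (21.0% higher, 17.1% lower). The residual medium libraries are shared with the vesicle effects, and CREB3 and CREB3L2 passed for PPCL-68 EV with the opposite sign.

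The genes whose pattern was most like each member's were sought by Pearson's r over the 8 group means, each line centred on its own mean, among 8380 genes, as a description. For ERN1 they were RP11-214C8.5 (r = 0.998), CHAC1 (0.990), an ATF4 output that degrades glutathione, and SUPT20H (0.988). For XBP1 they were TGDS (0.990), again RP11-214C8.5 (0.990) and PRDM4 (0.989). For EIF2AK4 the first was SLC39A10 (0.991), a zinc transporter, and for EIF2AK1 ACAT2 (0.989), an enzyme of acetyl-CoA metabolism. ATF6 was most like CLIC4 (0.980), ATF6B like AGBL5 (0.988), EIF2AK3 like EPHB4 (0.987), a receptor tyrosine kinase, and CREB3 like RRBP1 (0.995), a ribosome-binding protein of the ER. The best matches of CREB3L2 (OLA1, 0.952) and EIF2AK2 (SEC62, 0.947) were looser. The 8 means fall mainly into vesicle and medium groups, and how often values of this size occur among all genes was not counted.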

How the data were processed

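Total RNA of 24 libraries was sequenced without strand. The authors deposited one FPKM table per library, with gene length, symbol and position, per the file headers; the submitters' processing notes name hg19, CASAVA, STAR, HTSeq and DESeq2, without versions or roles. After multiplication by gene length, 100% of values in each library were whole read numbers (tolerance 0.01 reads), which gave 29209142 to 46490312 reads per library. Depth intervals would cover counting error only, since reads carry no molecular identifiers.

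Groups and replicate numbers came from the titles. The test was limma 3.58.1 (R 4.3.3; lmFit, eBayes with trend) on log2(FPKM + 1), with the 12 libraries of a line fitted together (8 residual degrees of freedom). Genes whose mean FPKM in the line was under 1 were left out. Line contrasts used all 24 libraries (16 degrees of freedom). Tests were two-sided, with Benjamini-Hochberg adjustment over all genes tested and a threshold of 0.05. The log2(FPKM + 1) scale understates changes of low genes. Alternatives were a pseudocount of 0.1, no filter, size factors, the replicate block, voom on recovered reads, only the 6 libraries compared and each library left out. Leaving out the 4 HPNE libraries apart was added after seeing the data.

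The members and lists were chosen with earlier results of these data known. All 10 members were tested in each comparison. Those that passed were named, except that HPDE with vesicles against untreated cells is given mainly as counts. List genes had to be among the 2 largest rises or 2 largest falls of their list, past the threshold, with groups that did not overlap. CREB3L1 in untreated HPNE, ERN2 and CREB3L3 are named to complete their families, and TRIB3 against untreated cells was added after its values were seen. ATF4, and DDIT3 and TRIB3 in HPNE residual medium against untreated, are also named outside this rule. Likeness was sought among genes averaging 5 FPKM or more. PECAM1, of the 6 other-cell markers, has no row. Promoters came from RefSeq, GRCh38.p14, and positions in hg19 from the deposited tables. On simulated reads with 2-fold changes, tested for PANC-1 EV against residual medium, the pipeline recovered 71.4% of 196 changed genes among 11471 in HPNE and 94.0% of 199 among 12222 in HPDE.

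Same-numbered libraries deviated together only in HPNE between the EV groups (correlations 0.57, 0.29 and 0.50), from the data rather than the labels. With the replicate block, 0 of the 10 genes differed there, as without it.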

Additional observations from a re-analysis of the deposited data

Results flagged for a closer look

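The response differed between the lines for several of the 10 genes, by an interaction test in limma over 24 libraries with Benjamini-Hochberg adjustment. Differences are the effect in HPDE minus that in HPNE, on the log2(FPKM + 1) scale. For PANC-1 EV against residual medium they were 0.57 for EIF2AK3, 0.33 for ATF6 and 0.60 for XBP1, 3 of 10 genes, where 21.2% of genes passed. For PPCL-68 EV they were 0.78 for ERN1, 0.86 for EIF2AK3, 0.34 for ATF6, 0.43 for XBP1, 0.69 for CREB3 and 0.89 for CREB3L2, 6 of 10, where 25.7% passed. All 9 were positive. Without the 4 HPNE libraries apart ATF6B also passed for PANC-1 EV, as negative (-0.41, adjusted p = 0.000273). EIF2AK1 then passed for PANC-1 EV (0.28, adjusted p = 0.0066) and for PPCL-68 EV (0.30, adjusted p = 0.00405). Under that choice 46.7% and 45.8% of genes passed. Of all genes that passed, more were negative than positive for each source (1551 against 1071, and 1683 against 1500). Size factors turned that split of all genes to 1287 against 1424 and 1520 against 1825.

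For residual medium against untreated cells the differences were 0.56 for ATF6B, -0.41 for CREB3 and -0.59 for CREB3L2, where 38.1% of genes passed. The value for CREB3 was near the threshold (adjusted p = 0.0476) and was lost under 4 of the other settings, with adjusted p from 0.0504 to 0.104. It was lost also without 10 of the 12 single libraries, the 10 values lying between -0.45 and -0.36. Without the 4 HPNE libraries apart it was -0.59 (adjusted p = 4.2e-05), where 61.9% of all genes passed and the spread is narrowed by construction. Each of the other 11 differences passed under every alternative run. The differences for residual medium share its libraries with the vesicle differences above, so the sets are not independent. CREB3 and CREB3L2 are in both, with opposite signs. In HPNE with PPCL-68 EV, CREB3 lay -0.77 from residual medium and -0.17 from untreated, and CREB3L2 -0.14 and 0.16. Line differences in vesicle effects were not tested from untreated cells.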

How the results depend on the processing

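Of 79 member results past the threshold, 64 kept direction and call under every alternative run, and 15 were lost by at least 1: 9 with no filter, 7 with only the 6 libraries compared, 5 with size factors, 13 without some single library, and 1 each with a pseudocount of 0.1, the replicate block and voom. The cause of each loss was not tested. For HPNE PANC-1 EV against residual medium, the 4 genes became 2 with only the 6 libraries and 2 to 5 without single libraries. For HPNE residual medium against untreated, the 3 became 5 with size factors and 2 to 3 without single libraries. Without the 4 HPNE libraries apart, these counts became 7 and 7, the 3 of PANC-1 EV against untreated became 7, the 0 between EV sources became 4 (0 to 1 without single libraries), and the line differences for PANC-1 EV and for residual medium went from 3 to 5 and from 3 to 7. The former was 3 to 5 without single libraries. Without the 4 HPNE libraries apart, the shares of all genes that passed were, in the order given, 59.1%, 71.7%, 62.7%, 36.5%, 46.7% and 61.9%.

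Between untreated lines, size factors reversed ATF6 (-0.27), CREB3 (-0.33) and EIF2AK4 (-0.038). They moved the median of all genes from -0.05 to 0.06 in HPNE residual medium against untreated and turned the split of all genes there from 2153 higher and 2899 lower to 3328 and 2083. With the replicate block the counts of members past the threshold were 5 and 5 (HPNE), then 6 and 8 (HPDE), for vesicles against residual medium, 3 and 2 for residual medium against untreated, 4, 6, 8 and 9 for vesicles against untreated, and 0 and 7 between sources. In the same order, the genes passing were 2579, 4521, 7525 and 8081, then 4941 and 2028, then 2462, 4880, 7171 and 7932, then 550 and 5789. Those in HPNE are of 11503 genes and those in HPDE of 12223. Outside the pair named under processing the numbers did not pair the groups (mean correlations from -0.43 to 0.21).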
